A study of Mus musculus with 17 samples.

Results

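Expression of 10 genes of prostaglandin and leukotriene synthesis and sensing was followed in conventional dendritic cells (cDCs) that had been cultured with live, apoptotic or necroptotic tumor cells. The genes were chosen by name as Ptgs1, Ptgs2, Ptges, Hpgds, Alox5, Alox5ap, Ltc4s, Lta4h, Ptger2 and Ptger4, and each of the 10 matched 1 of the 31091 gene identifiers in the count table. The cDCs came from spleens of 8-week-old female C57BL/6JRj mice that had received B16 tumor cells secreting FLT3 ligand, which expands cDCs, and spleens of at least 2 mice were pooled per experiment. CD11c-enriched cells were cultured for 6 h with GM-CSF and the complete culture medium, debris included, of TC-1 cells, a mouse lung epithelial tumor line. WT medium came from unmodified live TC-1 cells, BimS medium from TC-1-iBimS cells that undergo apoptosis and RIPK3 medium from TC-1-iRIPK3 cells that undergo necroptosis, and all 3 lines had received the inducer cumate. The engineered lines were derived by sorting single cells and each death mode comes from a line of its own, so that an effect of the death mode and one of the line cannot be told apart. After culture, cDC1s (XCR1+ SIRPα-) and cDC2s (SIRPα+ CD11b+) were sorted and their polyadenylated RNA was sequenced, with 3 samples in each of the 6 groups except cDC2s with RIPK3 medium, which had 2, for 17 samples in all.

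The samples held between 16095200 and 21645300 reads on genes (to 6 digits), and levels are given as CPM, read counts scaled to a common depth after TMM normalization. The markers matched the labels: the 9 cDC1 markers were all higher in cDC1s with WT medium and 8 of the 9 cDC2 markers tested were lower there, and the summed level of the cDC2 markers was 3.00 to 5.62 CPM over the cDC1 samples against 289 to 375 CPM over the cDC2 samples. The summed level of the cDC1 markers was 99.0 to 132 CPM in cDC2s and 1412 to 1738 CPM in cDC1s. In bulk samples, fewer cells of a type and less RNA per cell cannot be told apart.

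Prostaglandins and leukotrienes are short-lived lipids made from arachidonic acid, which phospholipases A2 release from membranes. The cyclooxygenases Ptgs1 and Ptgs2 turn it into prostaglandin H2, from which terminal synthases make the single prostanoids, such as prostaglandin E2 by Ptges and prostaglandin D2 by Hpgds. Alox5 with its partner Alox5ap makes leukotriene A4, which Lta4h converts to leukotriene B4 and Ltc4s to leukotriene C4. In dendritic cells, prostaglandin E2 is known to act through the Gs-coupled receptors encoded by Ptger2 and Ptger4 and to affect migration and cytokine release.

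Since Ptgs2, Hpgds, Ptger2 and Ptger4 were the members with the largest called changes between media, their promoters are shown. The sequences are RefSeq windows on GRCm38.p6, searched from 250 bases before to 50 bases after the transcription start and printed up to base 30 from the start, 5′ to 3′ on the strand of the gene. Capitals mark matches to any of the 5 motifs searched on both strands.
Ptgs2, chr1:150099781-150100060, plus strand: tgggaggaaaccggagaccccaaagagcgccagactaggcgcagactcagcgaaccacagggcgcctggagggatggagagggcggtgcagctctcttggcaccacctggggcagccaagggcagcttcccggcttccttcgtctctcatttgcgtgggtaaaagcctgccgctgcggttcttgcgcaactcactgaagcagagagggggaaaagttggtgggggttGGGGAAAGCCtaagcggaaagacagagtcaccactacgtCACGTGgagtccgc
Hpgds, chr6:65144701-65144980, minus strand: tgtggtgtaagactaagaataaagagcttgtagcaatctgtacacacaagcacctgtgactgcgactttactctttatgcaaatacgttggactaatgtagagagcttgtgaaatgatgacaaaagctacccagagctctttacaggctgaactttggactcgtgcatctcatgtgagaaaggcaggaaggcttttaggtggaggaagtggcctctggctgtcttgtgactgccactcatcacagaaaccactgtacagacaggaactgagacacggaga
Ptger2, chr14:44987861-44988140, plus strand: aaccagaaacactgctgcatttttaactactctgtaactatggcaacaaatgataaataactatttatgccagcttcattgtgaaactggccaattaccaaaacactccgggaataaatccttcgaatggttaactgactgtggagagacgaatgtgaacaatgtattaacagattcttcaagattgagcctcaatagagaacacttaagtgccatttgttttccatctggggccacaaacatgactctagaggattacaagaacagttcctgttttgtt
Ptger4, chr15:5244158-5244437, minus strand: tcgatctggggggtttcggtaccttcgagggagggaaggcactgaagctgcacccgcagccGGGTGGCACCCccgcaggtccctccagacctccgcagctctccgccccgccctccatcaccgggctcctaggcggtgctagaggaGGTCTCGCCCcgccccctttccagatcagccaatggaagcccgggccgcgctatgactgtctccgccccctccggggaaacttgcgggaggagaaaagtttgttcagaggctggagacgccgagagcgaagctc
The Ptgs2 window held an NF-kB core (GGG and CC separated by 5 bases) starting 23 bases before the start and an E-box (CACGTG) at base 17 from the start, and the Ptger4 window held 3 NF-kB cores, 2 of which overlap. No match was found in the Hpgds and Ptger2 windows. RefSeq windows were found for 9 of the 10 members, all but Alox5ap. The NF-kB core was present in 6 of the 9 and in 50.8% of all 32851 windows, and the E-box in 1 of the 9 and in 7.15% of all. The antioxidant response core (TGACNNNGC), the cAMP response element (TGACGTCA) and the AP-1 motif (TGANTCA), present in 12.4%, 1.79% and 7.81% of all windows, matched none of the 9. A match or its lack says only which letters the window holds.

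Ptgs2, the inducible cyclooxygenase, rose with both kinds of debris in both cell types, and its mean was highest with RIPK3 medium in each. The gene (ENSMUSG00000032487, GRCm39 chr1:149975194-149983978, plus strand) had levels of 36.8, 38.3 and 27.8 CPM in cDC2s with WT medium, 111, 119 and 99.4 CPM with BimS medium and 197 and 176 CPM with RIPK3 medium. The 3 groups did not overlap. Compared to WT medium the level was 3.19-fold higher with BimS medium (log2 fold change 1.67 ± 0.11 SE, adjusted p = 1.68e-08) and 5.39-fold higher with RIPK3 medium (2.43 ± 0.12, adjusted p = 2.98e-10). RIPK3 medium also gave a level 1.69-fold above that with BimS medium (0.76 ± 0.12, adjusted p = 0.00605). That last call was lost without either RIPK3 replicate, which leaves that group with 1 sample. Over all 14 alternatives the difference between RIPK3 and BimS medium was between 0.65 and 0.83.

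In cDC1s, Ptgs2 was near the lower end of detection, with 10 to 17 reads per sample with WT medium. Levels were 0.697, 0.509 and 0.763 CPM with WT medium, 1.93, 0.981 and 1.91 CPM with BimS medium and 2.83, 2.51 and 2.82 CPM with RIPK3 medium, again without overlap between the groups. The level was 2.40-fold higher with BimS medium (log2 fold change 1.26 ± 0.30, adjusted p = 0.00255) and 4.08-fold higher with RIPK3 medium (2.03 ± 0.28, adjusted p = 5.11e-07) than with WT medium. Between RIPK3 and BimS medium the difference was 0.77 ± 0.24 (adjusted p = 0.0591), and it passed the threshold once the replicate number was taken as a block (0.78, adjusted p = 0.0131). The mean in cDC1s was 1.91%, 1.47% and 1.46% of the mean in cDC2s with WT, BimS and RIPK3 medium. Over the 9 cDC2 markers the same ratio had medians of 1.44%, 1.66% and 1.32%, and 3, 5 and 4 of the 9 were at or above Ptgs2. It was 0.749%, 0.992% and 0.809% for Sirpa and 0.143%, 0.333% and 0.662% for Cd209a, and at the upper end 45.2%, 48.4% and 68.7% for Esam and 67.4%, 197% and 61.9% for Tbx21. The summed level of the 9 cDC2 markers in cDC1s was 3.00 to 4.28 CPM with WT, 4.16 to 5.62 CPM with BimS and 3.81 to 5.35 CPM with RIPK3 medium, and none of the 9 was at 0 in a whole group. Of the 8 markers tested in cDC1s only Esam passed the threshold, rising by 2.04 and 2.38 on the log2 scale with BimS and RIPK3 medium. The part of cDC2s among the sorted cDC1s in the Ptgs2 level was not tested. The 8 monocyte markers also summed to more with debris in cDC1s, at 249 to 257 CPM with WT, 546 to 568 CPM with BimS and 536 to 596 CPM with RIPK3 medium, and of the 6 tested 2 rose with BimS, and 3 rose and 1 fell with RIPK3 medium. Most of the sum was Treml4 (means of 167, 457 and 464 CPM) and Nr4a1 (77.1, 93.9 and 92.9 CPM), while Ccr2 was at 3.81, 3.91 and 6.13 CPM, Ly6c2 at 0.447, 0.659 and 0.614 CPM, Chil3 at 0 and F13a1 at no more than 1 read per group. In cDC2s the monocyte sums overlapped between the media (283 to 357 CPM over all samples), but single markers moved in opposite directions. Treml4 had means of 23.9, 84.6 and 69.5 CPM and Ms4a4c 240, 196 and 177 CPM in cDC2s with WT, BimS and RIPK3 medium. Of the 6 monocyte markers tested in cDC2s, 1 rose and 1 fell in each comparison with WT medium. The part of monocytes in the Ptgs2 level was not tested. The medium holds tumor cell debris, and in cDC2s the summed level of the 11 of 12 epithelial and adherent tumor cell markers in the table was also higher with debris, at 77.8 to 91.8 CPM with WT, 155 to 197 CPM with BimS and 152 to 169 CPM with RIPK3 medium. Most of it was Thbs1, with means of 49.2, 144 and 138 CPM, while Cdh1 had 32.7, 25.6 and 20.4 CPM and Krt8, Krt18 and Col1a1 at most 9 reads per group. In cDC1s the sum was 4.94 to 5.88, 5.19 to 8.60 and 6.96 to 8.48 CPM. Of these markers 1 of 8 tested in cDC2s rose in each comparison with WT medium, and 0 of 10 in cDC1s. The part of tumor cell RNA in the Ptgs2 level was not tested. An antisense gene, Ptgs2os, overlaps 521 bases of Ptgs2 and collected 338 reads over all samples, against 14062 reads for Ptgs2.

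**Figure D1:**
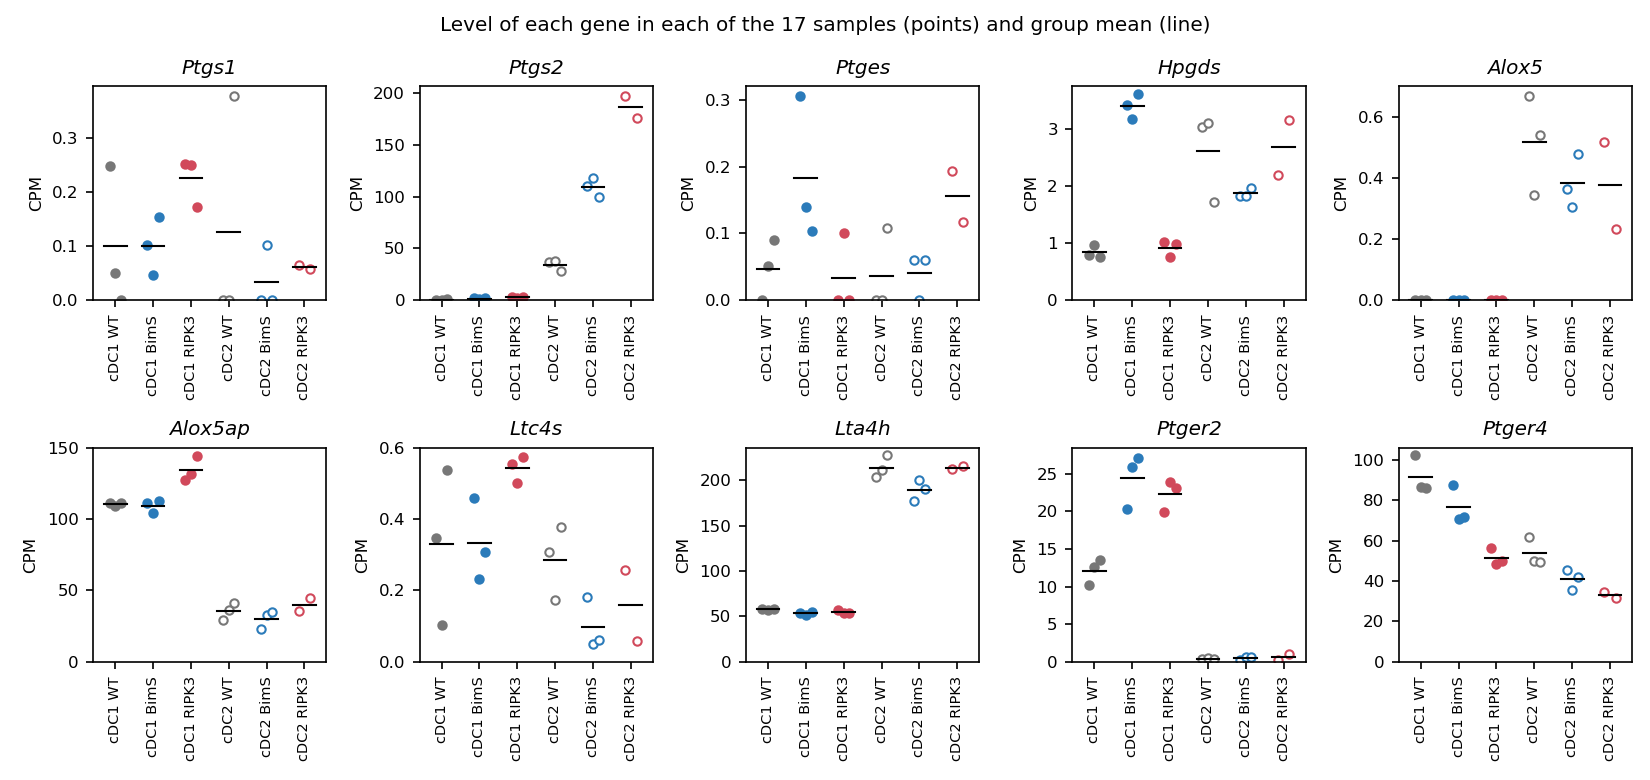
Level in CPM (linear vertical axes, each with its own range) of each of the 10 genes in the 17 samples, shown as points by group, filled for cDC1s and open for cDC2s, with lines at the group means. Ptgs2 lies between 27.8 and 197 CPM in cDC2s and at 2.83 CPM or less in cDC1s, and Hpgds in cDC1s with BimS medium lies above the other cDC1 groups.

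Ptgs1, the cyclooxygenase that many cells express without a stimulus (ENSMUSG00000047250, chr2:36120438-36142287, plus strand), was barely detected. The cDC1 samples held 0 to 5 reads each, with group totals of 6, 6 and 13 reads with WT, BimS and RIPK3 medium, and the cDC2 groups held 7, 2 and 2 reads. All 7 reads of cDC2s with WT medium came from replicate 3. That library also held 53 reads of Pf4, 6 of Gp9 and 45 of Alox12, which platelets express, and 26 of S100a9, a neutrophil gene, against at most 9, 1, 1 and 5 reads in any other cDC2 sample. The part of platelets in these Ptgs1 reads was not tested. No comparison of Ptgs1 passed the threshold. Without this library the Ptgs2 differences in cDC2s were 1.54 for BimS and 2.30 for RIPK3 against WT medium, both still past the threshold.

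Ptges, the inducible synthase of prostaglandin E2 (ENSMUSG00000050737, chr2:30779483-30820196, minus strand), had between 0 and 6 reads per sample. The group totals were 3, 11 and 2 reads in cDC1s and 2, 2 and 5 reads in cDC2s with WT, BimS and RIPK3 medium, so that no fold is given. In cDC1s the samples with BimS medium (6, 3 and 2 reads) were above those with WT (0, 1 and 2 reads) and RIPK3 medium (0, 2 and 0 reads) in CPM. In cDC2s it was the samples with RIPK3 medium (3 and 2 reads) that were above those with WT (0, 0 and 2 reads) and BimS medium (1, 0 and 1 reads). None of these differences passed the threshold (adjusted p = 0.287 and 0.310 in cDC1s, 0.477 and 0.724 in cDC2s).

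Hpgds, the hematopoietic prostaglandin D2 synthase, rose in cDC1s with BimS medium and not detectably with RIPK3 medium. The gene (ENSMUSG00000029919, chr6:65094001-65121983, minus strand) had levels of 0.797, 0.966 and 0.763 CPM in cDC1s with WT medium, 3.41, 3.18 and 3.61 CPM with BimS medium and 1.01, 0.753 and 0.978 CPM with RIPK3 medium. The samples with BimS medium held 67 to 70 reads each, while the other cDC1 samples held 15 to 20. The level with BimS medium was 4.02-fold that with WT medium (log2 fold change 2.01 ± 0.23, adjusted p = 2.38e-08) and 3.71-fold that with RIPK3 medium, written as RIPK3 against BimS -1.89 ± 0.23 (adjusted p = 1.49e-06). Between RIPK3 and WT medium the difference was 0.12 ± 0.29 (adjusted p = 0.867).

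In cDC2s, Hpgds was at 3.03, 3.10 and 1.73 CPM with WT medium, 1.82, 1.83 and 1.97 CPM with BimS medium and 2.20 and 3.16 CPM with RIPK3 medium. The WT and BimS groups overlapped, and the difference for BimS was -0.48 ± 0.25 (adjusted p = 0.333). The response to BimS medium differed between the cell types by 2.49 ± 0.33 (cDC1 minus cDC2, log2 scale, adjusted p = 4.20e-05), and so did that of RIPK3 against BimS medium, by -2.41 ± 0.35 (adjusted p = 0.00374). The latter call was lost without replicate 2 of cDC2s with RIPK3 medium, which leaves that group with 1 sample, while the estimate was -2.12. With WT medium Hpgds was 3.10-fold lower in cDC1s than in cDC2s (-1.63 ± 0.25, adjusted p = 3.11e-06), whereas with BimS medium the cDC1 samples were all above the cDC2 samples. Averaged over the 3 media the difference between the cell types was -0.78 (adjusted p = 3.38e-05). Since Hpgds is also known from mast cells, their markers are given: Ms4a2, Prss34 and Tpsb2 had 2, 2 and 1 reads in all 17 samples together. The 7 of 12 mast cell and basophil markers in the table summed to 513 to 523 CPM in cDC1s with WT, 330 to 367 with BimS and 251 to 284 with RIPK3 medium, which is mostly Kit, and Kit fell in cDC1s by 0.59 with BimS and by 0.94 with RIPK3 medium on the log2 scale. In cDC2s the sums were 465 to 583, 422 to 487 and 400.0 to 400.3 CPM. Hdc, which makes histamine, was like Hpgds higher in cDC2s than in cDC1s with WT medium (means of 7.31 and 0.730 CPM, -3.29, adjusted p = 2.83e-13), and in cDC1s with BimS medium it differed from WT medium by 0.16 (adjusted p = 0.855). Cyp11a1 had 2, 11 and 9 reads in cDC1s with WT, BimS and RIPK3 medium (2.29, adjusted p = 0.161 for BimS against WT). Of the 4 markers tested in cDC1s, 0 rose and 1 fell, Kit, in each comparison of media. Of the platelet genes, Pf4 rose in cDC1s with both kinds of debris, with 24, 230 and 174 reads per group with WT, BimS and RIPK3 medium (3.28, adjusted p = 2.30e-12, and 2.96, adjusted p = 6.47e-11), while the 7 of 8 platelet and megakaryocyte markers in the table summed to 8.77 to 10.9, 11.1 to 12.4 and 10.8 to 12.0 CPM and Gp6 was at 0 and Gp9 at no more than 1 read in the cDC1 groups. The monocyte sums given beside Ptgs2 were higher in cDC1s with both kinds of debris. The part of these cell types in the Hpgds level was not tested.

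Alox5, the 5-lipoxygenase (ENSMUSG00000025701, chr6:116387032-116438139, minus strand), was detected only in cDC2s. There were 0 reads in each of the 9 cDC1 samples, and 13, 6 and 10 reads with WT, 6, 6 and 8 with BimS and 8 and 4 with RIPK3 medium in cDC2s, which corresponds to 0.234 to 0.667 CPM. With 3 reads over the whole cDC1 group as the limit that a count of 0 allows, the level in cDC2s with WT medium was at least 10.8-fold higher, and over all media at least 25.9-fold higher. These limits cover counting error only. Alox5 was below the nonzero filter in the fits of cDC1s and of both cell types. In cDC2s it did not pass the threshold for BimS (-0.45 ± 0.48, adjusted p = 0.704) or RIPK3 (-0.49 ± 0.55, adjusted p = 0.723) against WT medium.

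Alox5ap, the membrane protein that presents arachidonic acid to Alox5, was abundant in both cell types and higher in cDC1s. The gene (ENSMUSG00000060063, chr5:149196003-149227762, plus strand) had levels of 111, 109 and 111 CPM in cDC1s with WT medium, 111, 105 and 112.4 CPM with BimS medium and 128, 132 and 144 CPM with RIPK3 medium. The RIPK3 samples lay above all others, by 0.28 ± 0.05 (adjusted p = 0.000125) against WT and 0.30 ± 0.05 (adjusted p = 0.000441) against BimS medium. On counts that were not normalized (limma), neither difference passed (0.16, adjusted p = 0.359, and 0.21, adjusted p = 0.373).

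In cDC2s, Alox5ap was at 29.5, 36.1 and 41.1 CPM with WT medium, 22.7, 32.5 and 34.9 CPM with BimS medium and 35.2 and 44.6 CPM with RIPK3 medium. Samples with the same replicate number ranked alike in the WT and BimS groups, and no difference passed the threshold in the unpaired fit. With the replicate number as a block, cDC2s with BimS medium were lower than with WT medium (-0.25, adjusted p = 0.00151) and those with RIPK3 medium were higher than with WT (0.27, adjusted p = 0.00293) and with BimS medium (0.52, adjusted p = 1.60e-09). With WT medium, cDC1s had 3.11-fold the level of cDC2s (1.64 ± 0.13, adjusted p = 1.06e-08).

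Lta4h, the hydrolase that makes leukotriene B4, was the member with the highest level per transcript length in cDC2s. The gene (ENSMUSG00000015889, chr10:93289210-93320749, plus strand) had levels of 204, 211 and 228 CPM in cDC2s with WT medium, 177, 200.5 and 191 CPM with BimS medium and 213 and 216 CPM with RIPK3 medium. In cDC1s the range over all 9 samples was 51.6 to 58.6 CPM. The level with WT medium was 3.69-fold lower in cDC1s than in cDC2s (-1.88 ± 0.07, adjusted p = 5.22e-20). No difference between media passed the threshold without a block, although the WT and BimS groups did not overlap in either cell type (-0.12 ± 0.06, adjusted p = 0.177 in cDC1s, and -0.18 ± 0.08, adjusted p = 0.232 in cDC2s). With the block, cDC2s with BimS medium were lower than with WT medium (-0.18, adjusted p = 0.000361) and lower than with RIPK3 medium (0.19 for RIPK3 against BimS, adjusted p = 0.00221).

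Ltc4s, the leukotriene C4 synthase (ENSMUSG00000020377, chr11:50127288-50129443, minus strand), had 2 to 12 reads per cDC1 sample and 1 to 7 reads per cDC2 sample. Its 3 cDC1 samples with RIPK3 medium had 11, 10 and 10 reads and those with WT medium 7, 2 and 12, with overlapping levels. No difference passed in the comparisons fitted, and only averaged over the 3 media was it higher in cDC1s (1.24, adjusted p = 0.00614). The antisense gene Gm26542 overlaps it and had 57 reads, against 98 for Ltc4s itself. Whether counting used the strand is not given in the sources used here, so reads of the pair cannot be told apart.

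**Figure D2:**
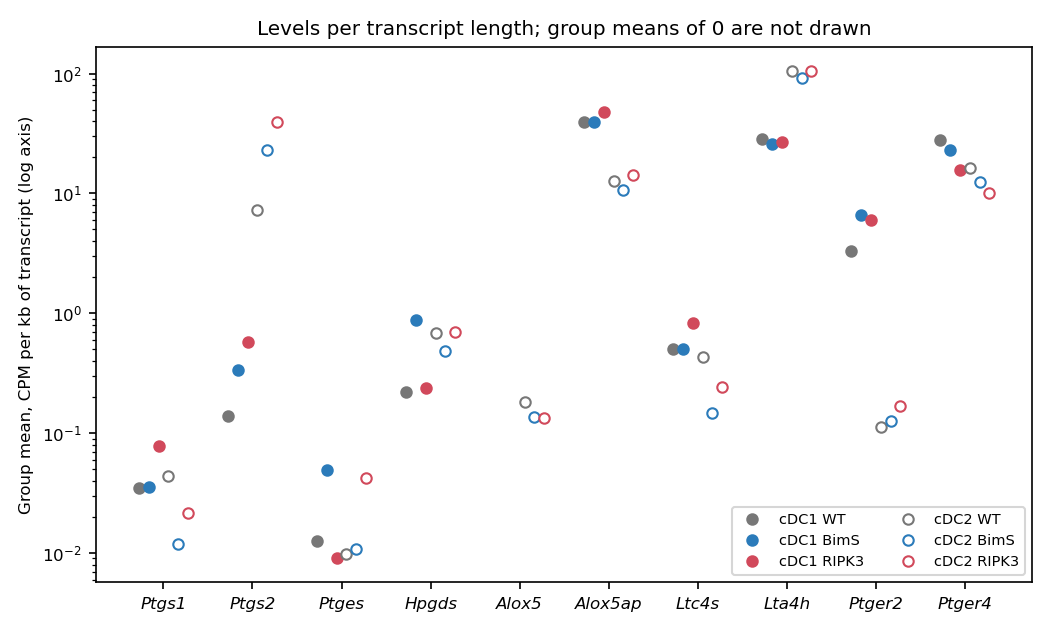
Group means in CPM per kb of the canonical transcript (log axis) of the 10 genes, filled for cDC1s and open for cDC2s. Lta4h in cDC2s (92.3 to 104 CPM per kb) is highest, and Alox5 has no cDC1 point because its counts there were 0.

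Per kb of transcript, the leukotriene genes were of unequal level. With WT medium, cDC2s had 104 CPM per kb of Lta4h, 12.7 of Alox5ap, 0.433 of Ltc4s and 0.183 of Alox5. In cDC1s the values were 28.3 for Lta4h, 39.6 for Alox5ap, 0.500 for Ltc4s and 0 for Alox5. Among the prostaglandin enzymes in cDC2s with WT medium, Ptgs2 was at 7.23 CPM per kb, Hpgds at 0.681, Ptgs1 at 0.0439 and Ptges at 0.00974, and with RIPK3 medium Ptgs2 reached 39.3 CPM per kb.

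Ptger2, which encodes the prostaglandin E2 receptor EP2, was a gene of cDC1s and rose there with both kinds of debris. The gene (ENSMUSG00000037759, chr14:45225652-45241277, plus strand) had levels of 10.3, 12.6 and 13.5 CPM in cDC1s with WT medium, 20.3, 25.9 and 27.2 CPM with BimS medium and 19.9, 23.9 and 23.1 CPM with RIPK3 medium. Every debris sample exceeded every WT sample, while the BimS and RIPK3 groups overlapped. Levels were 2.01-fold higher with BimS (1.01 ± 0.11, adjusted p = 7.29e-07) and 1.83-fold higher with RIPK3 medium (0.87 ± 0.11, adjusted p = 5.45e-06) than with WT medium, and RIPK3 against BimS medium gave -0.14 ± 0.11 (adjusted p = 0.623).

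In cDC2s, Ptger2 had 3 to 18 reads per sample, or 0.182 to 1.05 CPM. With WT medium its level was 28.8-fold higher in cDC1s than in cDC2s (4.85 ± 0.28, adjusted p = 4.46e-13). The mean in cDC2s was 3.44%, 1.89% and 2.80% of that in cDC1s with WT, BimS and RIPK3 medium, beside medians over the 9 cDC1 markers of 4.41%, 2.23% and 2.08%. Of these markers 5, 6 and 3 were at or above Ptger2. The ratio was 0.333%, 0.332% and 0.369% for Xcr1 and 2.04%, 2.19% and 2.33% for Clec9a, and highest for Batf3, at 45.4%, 42.8% and 36.6%. The summed level of the 9 cDC1 markers in cDC2s was 111.5 to 132 CPM with WT, 99.0 to 118 CPM with BimS and 102 to 112.1 CPM with RIPK3 medium, and Tlr3 was at 0 in the RIPK3 group. The part of cDC1s in the cDC2 values was not tested. The antisense gene Gm17173 overlaps the whole of Ptger2, had 283 reads against 3576 for Ptger2, and also rose in cDC1s with BimS (1.72, adjusted p = 2.57e-05) and RIPK3 medium (1.11, adjusted p = 0.00949).

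Ptger4, which encodes the receptor EP4, moved the other way and fell with RIPK3 medium in both cell types. With BimS medium its fall passed the threshold only in cDC2s in the unpaired fit. The response of Ptger4 to BimS medium did not differ detectably between the cell types (0.14 ± 0.15, cDC1 minus cDC2, adjusted p = 0.899). The gene (ENSMUSG00000039942, chr15:5236142-5273673, minus strand) had levels of 103, 86.7 and 85.8 CPM in cDC1s with WT medium, 87.7, 70.6 and 71.7 CPM with BimS medium and 56.3, 48.2 and 50.1 CPM with RIPK3 medium. The RIPK3 samples were all below the rest, and the WT and BimS groups overlapped. The level was 1.78-fold lower with RIPK3 than with WT medium (-0.83 ± 0.10, adjusted p = 6.28e-05) and 1.49-fold lower than with BimS medium (-0.57 ± 0.10, adjusted p = 0.00645). The latter call was lost without replicate 3 of the RIPK3 group (adjusted p = 0.125). Over all 15 alternatives that difference was between -0.65 and -0.46. BimS against WT medium gave -0.26 ± 0.10 (adjusted p = 0.115), and with the replicate number as a block -0.26 with an adjusted p of 6.73e-06.

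In cDC2s, Ptger4 was at 61.6, 49.7 and 49.6 CPM with WT medium, 45.2, 35.5 and 42.0 CPM with BimS medium and 34.7 and 31.4 CPM with RIPK3 medium. These 3 groups did not overlap. The level fell by 0.71 ± 0.12 with RIPK3 medium (log2 scale, adjusted p = 0.000704) and by 0.39 ± 0.11 with BimS medium (adjusted p = 0.0282). The call for RIPK3 medium was lost without replicate 2 of that group (-0.64, adjusted p = 0.0608). That for BimS medium was lost in 7 of 14 alternatives, namely DESeq2 (-0.38, adjusted p = 0.0531) and without WT replicate 1 or 2, BimS replicate 2 or 3 or either RIPK3 replicate, with adjusted p between 8.04e-10 and 0.214 over all 14. RIPK3 against BimS medium gave -0.31 ± 0.12 (adjusted p = 0.461), or -0.33 with the block (adjusted p = 0.000179). With WT medium cDC1s had 1.71-fold the Ptger4 level of cDC2s (0.77 ± 0.11, adjusted p = 1.58e-06). Ttc33, a protein-coding gene on the opposite strand that overlaps 15661 bases of Ptger4, differed by at most 0.12 in size in any comparison of media and passed in none.

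**Figure D3:**
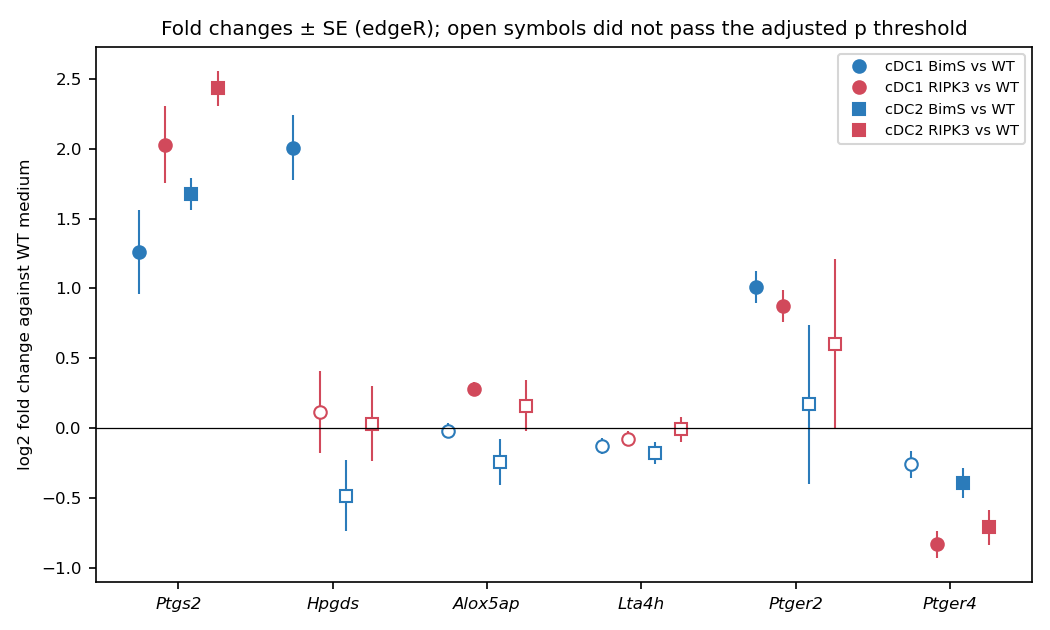
Log2 fold changes against WT medium (points) with their SE (bars) for the 6 members that were called between the cell types with WT medium, circles for cDC1s and squares for cDC2s, filled where the adjusted p passed 0.05. Ptgs2 is above 0 in all 4 comparisons and Ptger4 below 0, while Hpgds is filled only for cDC1s with BimS medium.

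The member counts are set beside the share of all genes called. Of the 9 members tested in cDC1s, 3 were called for BimS against WT medium (Hpgds, Ptger2 and Ptgs2, all higher), where 13.2% of all genes were called. For RIPK3 against WT medium 4 of 9 were called (Ptgs2, Ptger2 and Alox5ap higher, Ptger4 lower) against 16.5% of all genes. For RIPK3 against BimS medium 3 of 9 were called (Alox5ap higher, Hpgds and Ptger4 lower) against 4.15%. In cDC2s, 2 of 10 members were called for BimS against WT medium and the same 2 for RIPK3 against WT medium, Ptgs2 higher and Ptger4 lower, against 7.01% and 7.21% of all genes. Only Ptgs2 was called for RIPK3 against BimS medium, against 0.379%. These comparisons share samples, since both debris groups were set against the same WT samples. With the replicate block the cDC2 counts were 4, 3 and 4 of 10, beside 21.3%, 21.4% and 14.3% of all genes. In cDC1s the block gave 4 of 9 in each of the 3 comparisons, beside 17.9%, 21% and 8.87% of all genes.

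Between cDC1s and cDC2s with WT medium, 6 of the 9 members tested were called, against 46.2% of all genes. Ptger2, Alox5ap and Ptger4 were higher in cDC1s, and Ptgs2, Lta4h and Hpgds were higher in cDC2s. The largest of these differences was that of Ptgs2, at 51.4-fold (-5.68 ± 0.19, adjusted p = 1.25e-17). The response to the media differed between cell types for 1 of 9 members for BimS against WT (0.87% of all genes) and for RIPK3 against BimS medium (0.0314% of all genes), in each case Hpgds, and for 0 of 9 for RIPK3 against WT (1.14% of all genes), where DESeq2 also called 0 and none had an unadjusted p under 0.05. For Ptgs2, despite the distance in level, the response differed between cell types by -0.42 ± 0.35 for BimS and -0.41 ± 0.34 for RIPK3 against WT medium (adjusted p = 0.842 and 0.828).

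Of 52 further genes of the pathway, 49 were in the count table. For BimS against WT medium, 9 rose and 1 fell of the 35 tested in cDC1s, and 7 rose and 0 fell of the 38 tested in cDC2s, where 13.2% and 7.01% of all genes were called. For RIPK3 against WT medium, 9 rose and 4 fell in cDC1s, and 6 rose and 1 fell in cDC2s, where 16.5% and 7.21% of all genes were called. Between RIPK3 and BimS medium, 1 gene fell in each cell type, Cysltr1, where 4.15% and 0.379% of all genes were called. The same block added calls and removed none in these comparisons, giving 2 of 35 and 4 of 38 between RIPK3 and BimS medium in cDC1s and cDC2s, beside 8.87% and 14.3% of all genes under the block.

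Upstream of the cyclooxygenases, Pla2g4a, the cytosolic phospholipase A2 that frees arachidonic acid, rose in all 4 comparisons with WT medium. Its mean was 20.7, 44.7 and 46.7 CPM in cDC2s and 1.61, 3.43 and 4.36 CPM in cDC1s with WT, BimS and RIPK3 medium, with log2 fold changes of 1.11 and 1.16 in cDC2s (adjusted p = 6.36e-07 and 9.39e-07) and 1.08 and 1.43 in cDC1s (7.14e-05 and 2.59e-07). In cDC1s Pla2g6 rose by 0.31 and 0.39 and Pla2g15 fell by 0.60 and 0.49. Of the phospholipases, 3 of 7 were called in either cDC1 comparison with WT medium and 1 of 7 in either cDC2 comparison, beside 13.2% and 16.5% of all genes in cDC1s and 7.01% and 7.21% in cDC2s for BimS and RIPK3 against WT medium. The list's median log2 fold change was between 0.01 and 0.39 in these 4, beside medians over all genes of -0.02 to 0.00.

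Among the other prostanoid synthases, Ptges3, a cochaperone with reported prostaglandin E synthase activity, rose by 0.28 to 0.44 in the 4 comparisons with WT medium. Tbxas1, the thromboxane synthase, was at 176, 250 and 226 CPM in cDC1s and 26.9, 45.4 and 35.3 CPM in cDC2s with WT, BimS and RIPK3 medium. It rose in both cDC1 comparisons with WT medium (0.50 and 0.36) and in cDC2s with BimS medium (0.76, adjusted p = 0.000669). In cDC2s with RIPK3 medium it passed only with the replicate block. No further lipoxygenase and no gene of leukotriene and glutathione conjugation was called between media without a block.

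Of the genes of prostaglandin breakdown and transport, 4 of 7 rose in cDC1s for BimS, and 4 rose and 1 fell for RIPK3 against WT medium, beside 13.2% and 16.5% of all genes called, and 3 of 7 rose in each cDC2 comparison, beside 7.01% and 7.21%. The gene that fell was Ptgr2, a reductase of 15-keto prostaglandins (-0.31, adjusted p = 0.0151). With the replicate block Ptgr2 was also called in cDC1s for BimS against WT medium (means of 17.0 and 20.2 CPM). Ptgr1, a reductase that inactivates prostaglandins and leukotriene B4, had means of 0.696, 5.43 and 5.98 CPM in cDC1s and 1.77, 13.1 and 10.1 CPM in cDC2s. Its log2 fold changes were 2.92 and 3.07 in cDC1s (adjusted p = 2.38e-08 and 6.80e-09) and 2.87 and 2.496 in cDC2s (0.00194 and 0.00708). Abcc1, an exporter of leukotriene C4 and glutathione conjugates, rose from 379 to 1052 and 1034 CPM in cDC1s and from 676 to 1375 and 1220 CPM in cDC2s. Its rise was larger in cDC1s by 0.45 with BimS (adjusted p = 0.00965) and by 0.59 with RIPK3 medium (adjusted p = 0.000621). Abcc4, an exporter of prostaglandins, rose by 1.27 and 1.25 in cDC1s and by 1.44 and 1.18 in cDC2s.

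Among the further receptors, Ptgir, the prostacyclin receptor, rose by 2.74 and 2.45 in cDC1s (adjusted p = 1.02e-06 and 1.23e-05) and by 1.68 and 1.37 in cDC2s (8.41e-08 and 4.03e-06). Its mean went from 4.71 to 15.2 and 12.3 CPM in cDC2s. In cDC1s it went from 0.255 to 1.76 and 1.43 CPM, with only 16 reads in the whole WT group. Cysltr1, a receptor for cysteinyl leukotrienes, fell with RIPK3 medium, by 0.35 against WT medium in cDC1s (adjusted p = 0.000597) and by 0.78 in cDC2s (adjusted p = 1.82e-05), and it also fell against BimS medium by 0.35 and 0.68 (0.00401 and 0.00256). Ltb4r1, a leukotriene B4 receptor, fell in cDC1s with RIPK3 medium by 0.51 (adjusted p = 0.0254). With the replicate block Ltb4r1 was also called in cDC1s for BimS against WT medium (means of 3.48 and 4.69 CPM).

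**Figure D4:**
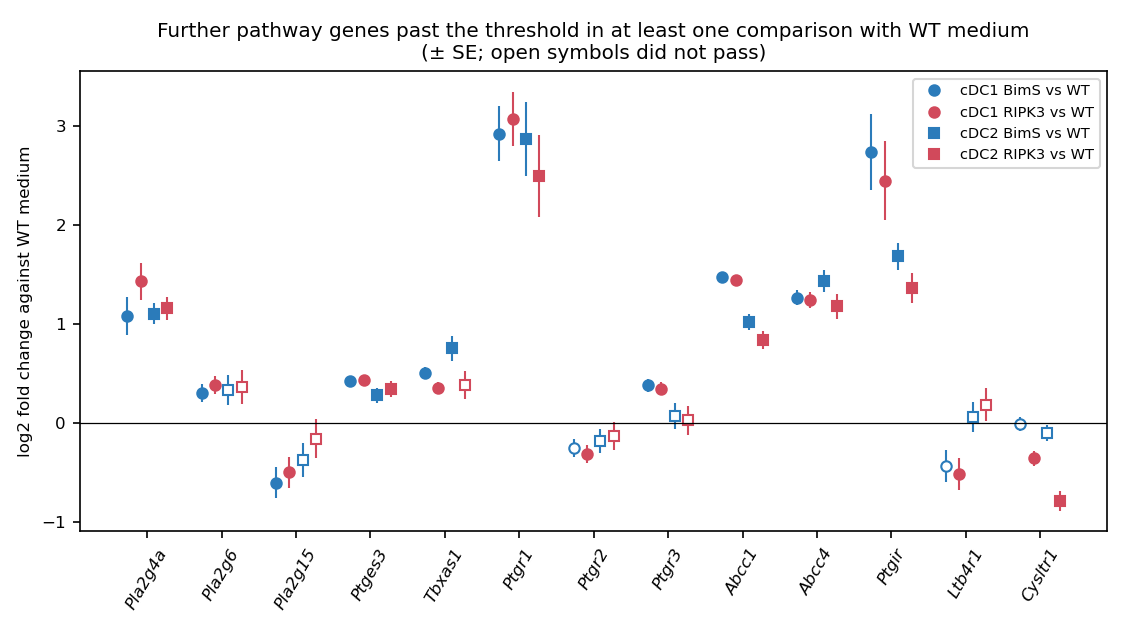
Log2 fold changes against WT medium (points, with SE bars) of the 13 further pathway genes that passed the threshold in at least 1 of the 4 comparisons, circles for cDC1s and squares for cDC2s, filled where the adjusted p passed 0.05. Ptgr1 is highest, between 2.496 and 3.07, and Pla2g4a, Ptges3, Abcc1, Abcc4 and Ptgir are filled in all 4.

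The genes whose log2 CPM followed Ptgs2 most closely over the 17 samples were Smox, Cyth1, Slc16a3, Dnajb4 and Crlf3, with Pearson's r of 0.996, 0.995, 0.995, 0.994 and 0.994. This is a description over samples that share the difference between the cell types. Smox, the spermine oxidase, had means of 335, 403 and 434 CPM in cDC1s and 879, 1173 and 1206 CPM in cDC2s with WT, BimS and RIPK3 medium. Slc16a3, a lactate transporter, had 20.6, 30.1 and 34.9 CPM in cDC1s and 109, 172 and 204 CPM in cDC2s.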

How the data were processed

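Gene expression was measured by bulk RNA sequencing of sorted cDC1s and cDC2s. The authors trimmed reads with SeqPurge, aligned them with STAR 2.7.10a to GRCm39 with Ensembl release 112 and deposited raw read counts per gene from gensum. Their normalized table was not used here. Of 31239 lines, 148 carried no identifier and held 0.0258% to 0.0366% of a sample's reads. They were left out. Symbols and coordinates came from GENCODE M39.

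Differences were tested by robust quasi-likelihood F-tests in edgeR 4.0.16 under R 4.3.3, after TMM scaling, on genes nonzero in at least 50% of the samples of a fit, with Benjamini-Hochberg adjustment over all genes and a threshold of 0.05. The SE of a log2 fold change is its size divided by the square root of the F statistic. All adjusted p-values are from edgeR unless another tool is named. Each cell type was fitted alone for the media, and all samples together for the cell types and interactions. On simulated counts, 94 of 100 genes changed 1 log2 unit were recovered for cDC1s with BimS against WT medium. For cDC2s with RIPK3 against WT medium it was 89 of 100, and for the interaction of BimS against WT medium 79 of 100. The false calls were 15 of 209, 25 of 212 and 10 of 182, in each case a share above 0.05. The changed genes were drawn from those with higher mean counts than Ptgs1, Ptges, Ltc4s and Alox5, so the rates do not cover these members. No pairing of samples was simulated. For samples with the same replicate number in the labels, deviations from the group means correlated above 0.1 in 9 of 9 pairs within cDC1s and 7 of 7 within cDC2s, so that the numbers pair samples there, and in 19 of 24 pairs across cell types. The sources used here do not say whether the replicates are separate experiments, so p-values measure the spread between these samples, which may be technical.

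The members, gene lists and motifs were chosen with earlier results of these data known. Named further genes were those called, at most the 3 largest per list and comparison. Ptgr2 was named beyond this rule, as the gene of its list that fell. For Ptgs2 the 5 genes with the highest correlation were named, among genes with a mean log2 CPM of 3 or more (prior count 2). Alternatives were DESeq2 1.42.0, RLE size factors, filterByExpr, no filter, limma 3.58.1 on log2(count + 1), the replicate block, leaving out each sample and, between the cell types, the mean over the media.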

Additional observations from a re-analysis of the deposited data

Results flagged for a closer look

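The response of Hpgds to BimS medium differed between the cell types, by 2.49 on the log2 scale (cDC1 minus cDC2), as did its difference between RIPK3 and BimS medium, by -2.41, both by a test of the difference itself. For Abcc1 the response was larger in cDC1s than in cDC2s by 0.45 with BimS and by 0.59 with RIPK3 medium, by the same test. Groups had at most 3 samples, so that single samples were not tested as outliers.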

How the results depend on the processing

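Of the members called, the largest dependence on the processing was in cDC2s. For BimS against WT medium, where 2 members were called, DESeq2 called 1, the replicate block called 4, and leaving out single samples gave 1 to 2, the member lost being Ptger4 each time. For RIPK3 against WT medium leaving out single samples gave 1 to 2. For RIPK3 against BimS medium the block called 4 in place of 1, and the call of Ptgs2 was lost without either RIPK3 replicate. Leaving out any other sample kept that call. Under the block the share of all genes called also went up, from 7.01% to 21.3% for BimS against WT medium. For RIPK3 against BimS medium this share went from 0.379% to 14.3%. For the interaction of RIPK3 against BimS medium leaving out single samples gave 0 to 1. In the remaining comparisons the counts stayed within 1.5 times under every alternative run. Where 1 sample of cDC2s with RIPK3 medium was left, it is assumed to vary like the other groups. Alox5, which was below the filter in the reported fit of both cell types, was tested and called between them with filterByExpr, with no filter and without any 1 of the 9 cDC1 samples, giving 7 members in place of 6. Its reads are all in cDC2s, so that once tested it had to differ. Fold changes were followed only for members tested in the reported fits, in comparisons where the reported fit or an alternative called them. Of these values, 516 kept their direction and side of the threshold, and 14 passed it only under the alternative. Another 14 passed it only in the reported fit, and 4 changed sign. None of those 4 was called in the reported fit: Alox5ap for RIPK3 against WT medium in cDC2s was -0.013 with limma on unnormalized counts and between -0.016 (without replicate 2 of the RIPK3 group) and 0.32 leaving out single samples, and Ltc4s between the cell types with WT medium ranged, leaving out single samples, from -0.33 (without replicate 3 of cDC1s with WT medium) to 0.63, with -0.022 without replicate 2 of cDC2s with WT medium. Averaged over the 3 media Ltc4s was at 1.24 and passed the threshold. The cause was not tested. The block added calls and removed none among members. Ptgs1, Ptges, Ltc4s and Alox5 are limited by depth, at 0 to 13 reads per sample.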

Other observations

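Genes whose log2 CPM was most like that of Hpgds over the 9 cDC1 samples, chosen after the Hpgds values were seen, were Tent5c, Flcn, Arhgap1, Vps18 and Mt1, with Pearson's r of 0.972, 0.971, 0.963, 0.960 and 0.957. Tent5c, a poly(A) polymerase, had means of 205, 306 and 221 CPM in cDC1s with WT, BimS and RIPK3 medium, and Mt1, a metallothionein, 14.6, 28.5 and 17.97 CPM. Within the 8 cDC2 samples, the genes most like Ptgs2 were Fam43a, Fbxo34, Vegfa, Cep76 and M6pr, with r between 0.992 and 0.995, also chosen after the values were seen. These are descriptions over samples that share the media.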
